A study of Mus musculus with 39 samples.

Results

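The 8 genes described here encode the enzymes that write, maintain and oxidise DNA methylation, with the cofactors of the writers. They are Dnmt1, Uhrf1, Dnmt3a, Dnmt3b, Dnmt3l, Tet1, Tet2 and Tet3, taken by gene symbol from 2 tables of gene counts that each list 47643 genes. All 8 were found under 1 identifier each. All 8 passed the filter on low counts in the epiblast comparisons, and 7 passed it in the cell lines, where Dnmt3l did not.

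RNA was sequenced from mouse epiblasts dissected on 3 embryonic days (E5.5, E6.5 or E7.5) and from epiblast stem cells (EpiSCs), of WT or Stat3 null genotype, to ask how loss of the transcription factor STAT3 alters development after implantation. Embryos came from crosses between Stat3 heterozygous mice on the CD1 background, and each embryo was genotyped from its extraembryonic tissue. In the null allele some Stat3 exons are replaced by a drug resistance cassette, so reads from the other exons can still be counted. There were 35 epiblast libraries, each from 1 epiblast: 2 WT and 4 null at E5.5, 9 WT and 8 null at E6.5, and 9 WT and 3 null at E7.5. The 4 EpiSC libraries came from 2 WT lines (8 and 13) and 2 null lines (2 and 6), derived from E6.5 or E7.5 epiblasts and kept in N2B27 medium with FGF2, Activin A and XAV-939, a WNT pathway inhibitor. Epiblast and EpiSC libraries were made with different kits, so no test was run between the tables.

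Libraries held 22941210 to 79013960 counts in epiblasts and 63445877 to 127583699 in EpiSCs. Stat3 itself was at 39.2 and 51.1 CPM (counts scaled to library size) in E5.5 WT and 9.33 to 22.7 CPM in E5.5 null epiblasts, and at 18.1 and 22.9 CPM in WT and 3.14 and 3.52 CPM in null EpiSCs. It was at 4.63 to 24.3 CPM in E7.5 WT and 1.22 to 1.5 CPM in E7.5 null epiblasts, and its E6.5 ranges overlapped, with 5.66 to 28.9 CPM in WT and 1.43 to 8.10 CPM in null. The library E5.5 null 1 went against its label as an epiblast, with 0.662 CPM of Pou5f1, a defining pluripotency gene, and 3 of 7 epiblast markers detected. Summed visceral endoderm markers (16 genes) reached 7687 CPM in E6.5 WT 3 against a group median of 300.1 CPM, summed extraembryonic ectoderm markers (9 genes) reached 747 CPM in E6.5 null 1 against a median of 17.8 CPM, and E7.5 WT 3 had 1337 CPM of summed epiblast markers (7 genes) against a median of 453 CPM. Calls of the 8 genes that rest on these 4 libraries are given with and without them where they differ.

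DNMT1 copies methylation onto the new strand after replication, and UHRF1 brings it to hemimethylated DNA. DNMT3A and DNMT3B add methylation to unmethylated CpG sites, and DNMT3L, which has no catalytic activity, stimulates both. TET1, TET2 and TET3 oxidise methylcytosine, a step towards its removal, and the mouse epiblast is known for gaining methylation across its genome around implantation.

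Promoter sequence is shown for members called different between E6.5 and E7.5 in WT epiblasts that have a window free of annotated exons, so Tet1, whose window overlaps an exon, is left out. Each window holds the 250 bases upstream of a RefSeq transcription start, on GRCm38.p6. The window of Dnmt3b, at chr2:153649199-153649448 on the plus strand, lies just before the annotated gene (chr2:153649450-153687730). That of Dnmt3a, at chr12:3806730-3806979 on the plus strand, lies in an intron within the gene's span (chr12:3806007-3914443). The window of Tet2, at chr3:133544391-133544640 on the minus strand, is also intronic within the gene (chr3:133463679-133545139). In these 3 sequences the capitals mark CpG sites, the substrate of the enzymes.

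Dnmt3b: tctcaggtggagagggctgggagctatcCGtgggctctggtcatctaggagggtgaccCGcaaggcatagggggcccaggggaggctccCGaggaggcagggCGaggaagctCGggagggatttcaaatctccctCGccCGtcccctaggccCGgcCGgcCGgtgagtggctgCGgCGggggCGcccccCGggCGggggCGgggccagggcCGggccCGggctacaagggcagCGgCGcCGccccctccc

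Dnmt3a: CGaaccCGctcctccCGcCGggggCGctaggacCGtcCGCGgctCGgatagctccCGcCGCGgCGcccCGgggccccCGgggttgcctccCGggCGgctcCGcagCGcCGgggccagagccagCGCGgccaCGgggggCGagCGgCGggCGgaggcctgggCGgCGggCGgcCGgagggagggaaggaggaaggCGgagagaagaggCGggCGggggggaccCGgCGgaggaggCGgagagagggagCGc

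Tet2: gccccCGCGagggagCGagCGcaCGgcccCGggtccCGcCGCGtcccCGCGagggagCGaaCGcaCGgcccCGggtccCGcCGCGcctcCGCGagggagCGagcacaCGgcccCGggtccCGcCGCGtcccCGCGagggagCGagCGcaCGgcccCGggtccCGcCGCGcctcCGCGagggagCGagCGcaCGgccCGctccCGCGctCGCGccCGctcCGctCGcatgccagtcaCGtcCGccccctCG

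The window of Dnmt3b held 21 CpG sites, that of Dnmt3a 38 and that of Tet2 51. The median over 32841 windows of 27018 genes was 6, and 16.4%, 1.88% and 0.067% of windows held as many as these 3 or more.

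For Dnmt3l, the window at chr10:78049592-78049841 on the plus strand is intronic within the gene (chr10:78041947-78063622), before the second of 3 start sites. It is shown because it was the 1 window of the members' 15 that held the STAT motif TTCNNNGAA, searched on both strands. The capitals mark that match.

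Dnmt3l: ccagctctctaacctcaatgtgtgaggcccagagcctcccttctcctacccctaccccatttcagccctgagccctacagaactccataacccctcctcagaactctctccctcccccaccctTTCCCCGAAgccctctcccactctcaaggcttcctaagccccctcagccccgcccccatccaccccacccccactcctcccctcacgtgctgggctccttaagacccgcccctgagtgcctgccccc

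This window held 4 CpG sites, fewer than the median window. The motif was present in 7.02% of all windows. The match is a description of these letters and not evidence of binding.

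The maintenance pair changed least. Dnmt1 was at 322 to 486 CPM in the 9 E6.5 WT epiblasts (median 462 CPM) and at 410 to 489 CPM in the 9 E7.5 WT epiblasts (median 427 CPM). The E7.5 null epiblasts had 464, 437 and 437 CPM. These ranges overlapped throughout, and the highest group mean of the 6 epiblast groups was 1.23 times the lowest. Uhrf1 was likewise at 448 to 574 CPM in E6.5 WT, 381 to 489 CPM in E7.5 WT and 425 to 465 CPM in E7.5 null epiblasts, with a highest group mean 1.16 times the lowest. Between E6.5 and E7.5 in WT, the log2 fold change of Dnmt1 was -0.01 ± 0.07 (SE, edgeR adjusted p = 0.966). That of Uhrf1 was -0.16 ± 0.05 (edgeR adjusted p = 0.0275), well under the fold threshold.

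At E5.5, Dnmt1 was at 327 and 398 CPM in WT and 394 to 500.2 CPM in null epiblasts, and Uhrf1 at 376 and 481 CPM in WT and 357 to 517 CPM in null. In EpiSCs Dnmt1 was at 208 and 228 CPM in the WT lines and 248 and 239 CPM in the null lines, and Uhrf1 at 282 and 292 CPM in WT and 311 and 334 CPM in null. Neither gene was called in any comparison by edgeR.

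**Figure D1:**
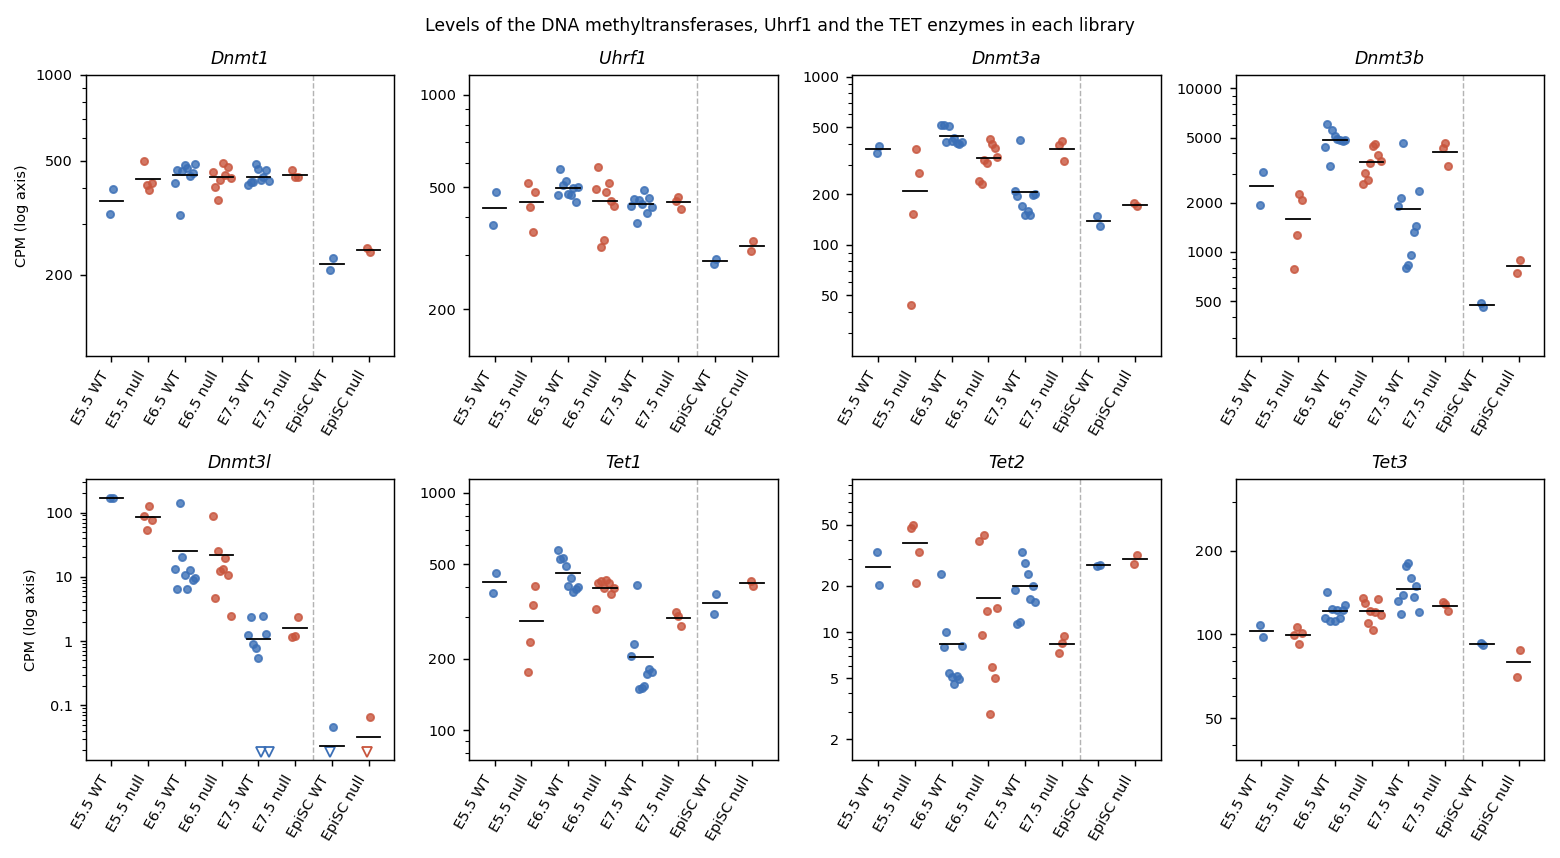
Level of each gene in every library (CPM, log axis), WT in blue and Stat3 null in red. Black bars are group means, open triangles at the bottom are libraries with 0 counts, and the dashed line separates the EpiSC table. Dnmt1 and Uhrf1 lie flat across the epiblast groups, while Dnmt3l goes from 166 CPM in E5.5 WT to 1.07 CPM in E7.5 WT.

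Dnmt3b, the de novo enzyme most abundant here, fell in WT epiblasts between E6.5 and E7.5. It was at 3372 to 6061 CPM in E6.5 WT (median 4857 CPM) and at 796 to 4600 CPM in E7.5 WT (median 1443 CPM). The ranges overlapped through 1 library, E7.5 WT 3, since the next highest E7.5 WT library was at 2371 CPM. The log2 fold change was -1.41 ± 0.29 (edgeR adjusted p = 0.00185). Less RNA per cell and fewer cells of a kind that expresses the gene cannot be told apart in such bulk samples, here or in any comparison that follows.

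Dnmt3a, the other de novo enzyme, fell alongside it. It was at 396 to 515 CPM in E6.5 WT (median 413 CPM) and at 150 to 423 CPM in E7.5 WT (median 195 CPM). Again only E7.5 WT 3 reached the E6.5 range, with the other 8 libraries at 210 CPM or less. On the log2 scale it changed by -1.10 ± 0.16 (edgeR adjusted p = 8.49e-05).

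Dnmt3l, the cofactor, had the largest change. In E6.5 WT it was at 6.40 to 141 CPM, with E6.5 WT 3 the highest and the other 8 at 20.2 CPM or less. In E7.5 WT it was at 0 to 2.49 CPM, with 0 counts in 2 of 9 libraries, where a count of 0 allows up to 0.0801 and 0.108 CPM (3 counts, counting error only). The groups did not overlap. On the log2 scale the change was -4.57 ± 0.87 (edgeR adjusted p = 0.000916), and without E6.5 WT 3 it was -3.35 and still called.

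Tet1, the main TET enzyme of the epiblast in these data, also fell. It was at 382 to 573 CPM in E6.5 WT (median 439 CPM) and at 149 to 408 CPM in E7.5 WT (median 176 CPM), where E7.5 WT 3 was the highest and the next library was at 230 CPM. The log2 fold change was -1.17 ± 0.17 (edgeR adjusted p = 7.08e-05). Tet2 moved the other way, from 4.58 to 23.9 CPM in E6.5 WT (median 5.42 CPM) to 11.3 to 33.1 CPM in E7.5 WT (median 18.7 CPM). All E6.5 WT libraries but E6.5 WT 1 lay below the E7.5 range, and the log2 fold change was 1.26 ± 0.31 (edgeR adjusted p = 0.00440). Tet3 was at 112 to 142 CPM in E6.5 WT (median 122 CPM) and 118 to 181 CPM in E7.5 WT (median 138 CPM), and it passed the test with a small change, 0.28 ± 0.08 on the log2 scale (edgeR adjusted p = 0.0159).

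In this comparison 5 of the 8 genes were called at an adjusted p under 0.05 and an absolute log2 fold change over 1, 4 lower and 1 higher, where 8.83% of the 17191 genes tested were called, 3.09% lower and 5.74% higher. Dnmt3l alone had groups that did not overlap, against 2.4% of all genes. Leaving out each of the 18 libraries in turn kept 5 genes called each time. Visceral endoderm markers moved in the same comparison, with 16 of 16 higher in E7.5 WT, 4 of them called (13 without E6.5 WT 3 and E7.5 WT 3), and summed levels of 155 to 7687 CPM at E6.5 and 718 to 5591 CPM at E7.5. Epiblast markers were 6 of 7 lower in E7.5 WT, with a median log2 fold change of -1.41. Of them 5 were called lower, or 6 without E6.5 WT 3 and E7.5 WT 3. The part of both marker lists in the result was not tested.

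**Figure D2:**
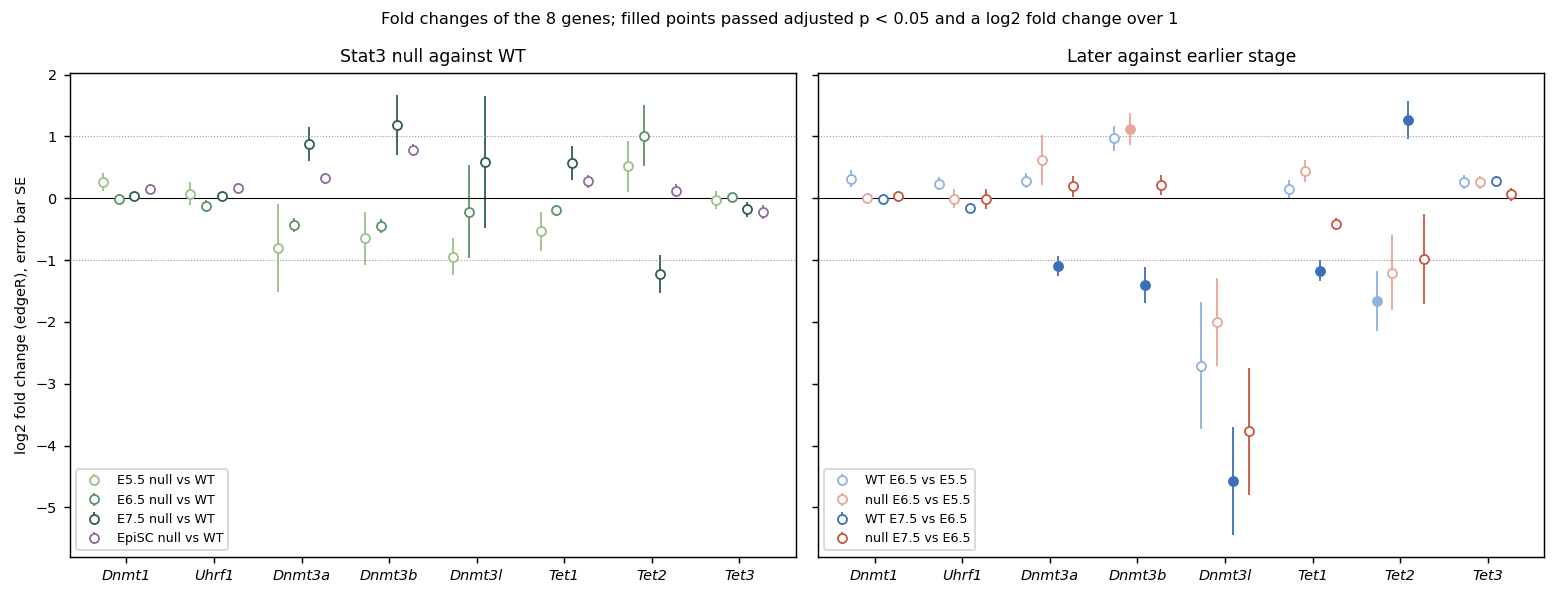
Log2 fold changes of the 8 genes with their standard errors (edgeR), on the left for Stat3 null against WT and on the right for the later against the earlier stage. Filled points passed both an adjusted p under 0.05 and an absolute log2 fold change over 1, and the dotted lines mark that fold change in either direction. The filled points between E6.5 and E7.5 belong to WT epiblasts, and Dnmt3l has the lowest of them at -4.57.

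In Stat3 null epiblasts, Dnmt3b was at 2616 to 4589 CPM in E6.5 null (median 3549 CPM) and at 4342, 4604 and 3349 CPM in the 3 E7.5 null epiblasts. The E7.5 null values lay inside the E6.5 null range or just above it, and the log2 fold change was 0.21 ± 0.16 (edgeR adjusted p = 0.906). Dnmt3a was at 229 to 425 CPM in E6.5 null and at 395, 413 and 314 CPM in E7.5 null, all 3 inside the E6.5 range (0.19 ± 0.17, edgeR adjusted p = 0.941).

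Tet1 and Dnmt3l were lower in every E7.5 null library than in any E6.5 null library. Tet1 was at 325 to 429 CPM at E6.5 and at 315, 304 and 275 CPM at E7.5, a log2 fold change of -0.41 ± 0.10 (edgeR adjusted p = 0.143). Dnmt3l was at 2.45 to 87.5 CPM at E6.5 and at 1.17, 1.21 and 2.40 CPM at E7.5, a log2 fold change of -3.77 ± 1.02 (edgeR adjusted p = 0.230), or -2.95 ± 0.70 without E6.5 null 1 (edgeR adjusted p = 0.131). These 2 of 8 genes compare with 5.89% of all genes whose groups did not overlap. By edgeR 0 of the 8 were called, where 0.103% of 19460 genes were. Dnmt3l was called by DESeq2 (adjusted p = 0.000269), which called 1 of the 8, and limma with sample weights called 0. At an unadjusted p under 0.05, 8.13% of all genes passed. In the same comparison visceral endoderm markers were 15 of 16 lower at E7.5 (median log2 fold change -3.52). Extraembryonic ectoderm markers were 7 of 7 tested lower (median -3.22, and -1.37 without E6.5 null 1). Epiblast markers were 4 of 7 higher (median 0.03), and each of these lists had 0 called. The part of the markers in the members' values was not tested.

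The change from E6.5 to E7.5 was compared between genotypes by an interaction term, the null change minus the WT change. Dnmt3a was called, with a difference of 1.29 ± 0.26 on the log2 scale (edgeR adjusted p = 0.0204), where 0.443% of 22122 genes were called (0.185% higher). For Dnmt3b the difference was 1.61 ± 0.42 (edgeR adjusted p = 0.0641), called without E6.5 WT 3 (edgeR adjusted p = 0.0321) or without E7.5 WT 3 (edgeR adjusted p = 0.000658). For Tet1 it was 0.75 ± 0.24 (edgeR adjusted p = 0.113) and for Tet2 -2.25 ± 0.75 (edgeR adjusted p = 0.138). The call of Dnmt3a was lost without E7.5 null 1 (edgeR adjusted p = 0.134) and without E7.5 null 2 (edgeR adjusted p = 0.163). Without E6.5 null 1, E6.5 WT 3 and E7.5 WT 3 together, Dnmt3a and Dnmt3b were both called, at 1.45 and 1.92 (edgeR adjusted p = 2.92e-06 and 0.000516), where 3.99% of all genes were called. For Dnmt3l the difference was 0.78 ± 1.28 and for Dnmt1 0.03 ± 0.11, neither larger than its error. Marker genes moved in the same term: visceral endoderm markers were 16 of 16 below 0 (median -4.86) and epiblast markers 7 of 7 above 0 (median 1.62). With all libraries 0 of either list were called. Without E6.5 null 1, E6.5 WT 3 and E7.5 WT 3, 14 and 5 were. Their part in the result was not tested.

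At E7.5 itself, the null epiblasts lay above 8 of the 9 WT epiblasts in Dnmt3a and below all 9 in Tet2. The 3 null values of Dnmt3b, 3349 to 4604 CPM, also lay above 8 of the 9 WT values, and the fold change on the log2 scale was 1.19 ± 0.48 (edgeR adjusted p = 0.203). For Dnmt3a it was 0.88 ± 0.27 (edgeR adjusted p = 0.102). Tet2 was at 7.33, 8.49 and 9.38 CPM in null and 11.3 CPM or more in every WT library, so its groups did not overlap, with a log2 fold change of -1.22 ± 0.31 (edgeR adjusted p = 0.0511).

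By edgeR 0 of the 8 genes were called at E7.5, where 1.17% of 19680 genes were, and 1 of 8 had groups that did not overlap, against 3.92% of all genes. DESeq2 called 1 gene, limma with sample weights called 3, and 19.7% of all genes had an unadjusted p under 0.05. The edgeR count also moved when single WT libraries were left out. Without E7.5 WT 3, edgeR called 3 genes: Dnmt3a (1.08 ± 0.11, adjusted p = 2.07e-05), Dnmt3b (1.49 ± 0.35, adjusted p = 0.0202) and Tet2 (-1.29 ± 0.28, adjusted p = 0.00573), where 5.68% of all genes were called. Tet2 was also called without E7.5 WT 2 (edgeR adjusted p = 0.0483). Marker genes moved in the same comparison: summed visceral endoderm markers were at 718 to 5591 CPM in WT and 138 to 489 CPM in null, with 16 of 16 lower in null and 4 called (11 without E7.5 WT 3). Summed epiblast markers were at 280 to 1337 CPM in WT and 1082 to 1456 CPM in null, with 7 of 7 higher in null and 0 called (6 without E7.5 WT 3). Their part in the result was not tested.

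**Figure D3:**
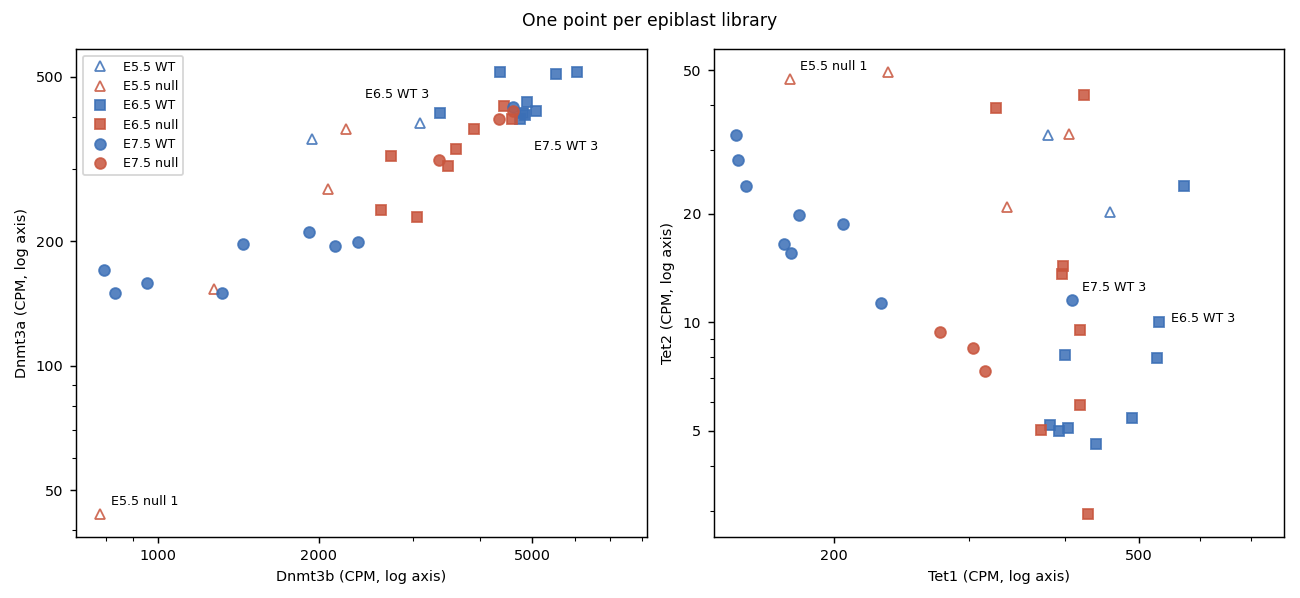
Each epiblast library is a point on log axes in CPM, Dnmt3a against Dnmt3b on the left and Tet2 against Tet1 on the right, with blue for WT, red for Stat3 null and the marker shape for the stage. Of the 9 E7.5 WT libraries, 8 sit apart at Dnmt3b of 2371 CPM or less, while E7.5 WT 3 and the 3 E7.5 null libraries sit among the E6.5 libraries, at 3349 CPM or more.

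The E7.5 null epiblasts were also set against E6.5 WT epiblasts. The log2 fold change was -0.24 ± 0.10 for Dnmt3a, -0.24 ± 0.14 for Dnmt3b and 0.02 ± 0.44 for Tet2, none past the threshold (edgeR adjusted p = 0.492, 0.693 and 0.997). Tet1 was lower by a small amount, -0.62 ± 0.12 (edgeR adjusted p = 0.0428), and Dnmt3l was at -3.99 ± 1.27 (edgeR adjusted p = 0.330). In both, the groups did not overlap, 2 of 8 genes against 4.43% of all genes. None of the 8 was called by edgeR, where 0.162% of 19749 genes were called and 8.87% had an unadjusted p under 0.05. DESeq2 called 0 but gave no adjusted p for Dnmt3l, and limma with sample weights called 1. Without E6.5 WT 3, Dnmt3l was called (-2.78 ± 0.41, edgeR adjusted p = 0.00632). This comparison shares its null libraries with the E7.5 comparison of genotypes and its WT libraries with the WT stage comparison.

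From E5.5 to E6.5, 1 member was called in each genotype, Tet2 in WT and Dnmt3b in null epiblasts. In WT, Dnmt3b was at 1945 and 3088 CPM at E5.5 and higher in all 9 E6.5 libraries, at 0.97 ± 0.20 on the log2 scale (edgeR adjusted p = 0.0120), just under the fold threshold, and called without E5.5 WT 2 (1.30 ± 0.23, edgeR adjusted p = 0.00634). In null epiblasts it was at 781, 1275, 2243 and 2083 CPM at E5.5 and higher in all 8 E6.5 libraries, and it was called at 1.13 ± 0.26 (edgeR adjusted p = 0.0313). The null call was lost without E5.5 null 1 (0.93 ± 0.21, edgeR adjusted p = 0.0229), where it fell under the fold threshold, and without any 1 of E5.5 null 2 or E6.5 null 4, 5, 6, 7 and 8 (edgeR adjusted p of 0.0509 to 0.123).

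Dnmt3l was at 165 and 167 CPM in E5.5 WT, above all 9 E6.5 WT libraries. Its change was -2.70 ± 1.02 on the log2 scale (edgeR adjusted p = 0.143), and without E6.5 WT 3 it was -3.94 ± 0.29 and called (edgeR adjusted p = 1.20e-05). In null epiblasts it was at 88.7, 54.5, 125 and 75.5 CPM at E5.5, where only E6.5 null 1, at 87.5 CPM, reached the E5.5 range. The log2 fold change was -2.0 ± 0.71 (edgeR adjusted p = 0.146), and it was called without E6.5 null 1 (-2.81 ± 0.48, edgeR adjusted p = 0.00537). E6.5 WT 3 and E6.5 null 1 are the libraries with the most visceral endoderm and extraembryonic ectoderm marker RNA of their E6.5 WT and E6.5 null groups, in that order. The markers also shifted between the stages: in WT, summed visceral endoderm markers were at 7279 to 9036 CPM at E5.5 against a median of 300.1 CPM at E6.5, with 15 of 16 lower at E6.5 (median log2 fold change -2.32), and extraembryonic ectoderm markers were 9 of 9 lower (median -3.77). In null epiblasts 14 of 16 and 8 of 8 tested were lower (medians -1.45 and -1.71). The part of these markers in the members' values was not tested.

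Tet2 was called lower in WT E6.5, at 33.0 and 20.2 CPM in E5.5 WT and 4.58 to 23.9 CPM in E6.5 WT (-1.66 ± 0.48, edgeR adjusted p = 0.0459). The call was lost without either E5.5 WT library and without any 1 of E6.5 WT 2, 4, 5, 6, 7, 8 and 9 (edgeR adjusted p of 0.0644 to 0.492). In this WT comparison 1 of the 8 genes was called, where 5.15% of 20763 genes were (2.63% lower), and 4 of 8 had groups that did not overlap, against 16.9% of all genes. In the null comparison 1 of 8 was called, where 1.98% of 18352 genes were (1.22% higher), and 1 of 8 did not overlap, against 5.41%. Dnmt3a and Tet1 showed no call in either, with log2 fold changes of 0.29 ± 0.12 and 0.15 ± 0.14 in WT and 0.62 ± 0.41 and 0.44 ± 0.18 in null.

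Null and WT epiblasts of the same early stage did not differ by a call in any member. At E5.5, Dnmt3l was lower in all 4 null libraries than in both WT libraries, at -0.94 ± 0.30 on the log2 scale (edgeR adjusted p = 0.999). That was 1 of 8 genes with groups that did not overlap, against 11.7% of all genes. The count called was 0 of 8, with a background of 0% of 18690 genes, while 2.5% had an unadjusted p under 0.05, and DESeq2 and limma with sample weights also called 0 of 8. Dnmt3a ranged widely in E5.5 null, at 43.7 CPM in E5.5 null 1, then 154, 374 and 268 CPM, against 354 and 387 CPM in WT. Marker genes also shifted at E5.5, with 0 called. Epiblast markers were 7 of 7 lower in null (median log2 fold change -0.84, and -0.42 without E5.5 null 1). Extraembryonic ectoderm markers were 8 of 9 higher (median 1.41), or 5 of 9 without E5.5 null 1 (median 0.47). Visceral endoderm markers were 10 of 16 higher (median 0.06), or 16 of 16 without it (median 0.48). Their part in the members' values was not tested.

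At E6.5, the null medians lay below the WT medians in both de novo enzymes. Dnmt3a was at 229 to 425 CPM in null (median 328 CPM) and 396 to 515 CPM in WT, and Dnmt3b at 2616 to 4589 CPM in null and 3372 to 6061 CPM in WT, with overlap in both, as in all 8 members, where 0.0585% of all genes had groups that did not overlap. The log2 fold changes were -0.43 ± 0.11 for Dnmt3a (edgeR adjusted p = 0.344) and -0.44 ± 0.11 for Dnmt3b (edgeR adjusted p = 0.345). In the same comparison visceral endoderm markers were 16 of 16 higher in null (median log2 fold change 1.17, and 2.62 without E6.5 WT 3 and E6.5 null 1) and extraembryonic ectoderm markers 5 of 5 tested higher (median 3.19, and 1.88 without them), with 0 called. Their part in the members' values was not tested. Tet2 was at 2.93 to 42.7 CPM in null and 4.58 to 23.9 CPM in WT (1.01 ± 0.49, edgeR adjusted p = 0.617). By edgeR and limma with sample weights 0 of 8 were called, with an edgeR background of 0% of 17095 genes and 8.27% at an unadjusted p under 0.05. DESeq2 also called 0 but gave no adjusted p for Dnmt3l. Dnmt3l turned direction without E6.5 WT 3, from -0.22 ± 0.75 to 1.0 ± 0.53. Depth differed among these libraries: among those under 40000000 counts the log2 fold change was -0.22 for Dnmt3a and -0.32 for Dnmt3b, and among those over it -0.86 and -0.71, with no call in either group.

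E6.5 null epiblasts were also set against E5.5 WT epiblasts. Dnmt3l was lower in all 8 E6.5 null libraries than in the 2 E5.5 WT libraries (-2.93 ± 0.90, edgeR adjusted p = 0.263), and it was called without E6.5 null 1 (-3.73 ± 0.55, edgeR adjusted p = 0.0141). It was the 1 gene of 8 without overlap, against 10.3% of all genes. The edgeR count was 0 of 8, where 0.162% of 20326 genes were called and 9.69% had an unadjusted p under 0.05. DESeq2 called 0 but gave no adjusted p for Dnmt3l, and limma with sample weights called 2. Dnmt3b was at 0.48 ± 0.22 and Tet1 at -0.09 ± 0.12 on the log2 scale.

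In EpiSCs Dnmt3b was higher in both null lines, at 742 and 889 CPM against 484 and 463 CPM in the WT lines, a log2 fold change of 0.78 ± 0.10 (edgeR adjusted p = 0.0739). Dnmt3a was at 177 and 170 CPM in null and 148 and 130 CPM in WT (0.32 ± 0.09, edgeR adjusted p = 0.310). Tet1 was at 424 and 406 CPM in null and 308 and 376 CPM in WT, and Tet3 was the 1 member lower in both null lines, at 70.6 and 88.2 CPM against 93.2 and 91.7 CPM. All 7 genes tested had groups that did not overlap, which with 2 lines a group held for 39.5% of all genes. By edgeR 0 of 7 were called, where 0.106% of 20736 genes were and 9.09% had an unadjusted p under 0.05, and DESeq2 and limma with sample weights also called 0. Dnmt3l had 0 and 6 counts in the WT lines and 0 and 6 counts in the null lines, too few to test.

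Levels can be compared between genes only per length of exon, here all annotated exons of a gene merged over its transcripts. This length was 16.6 kb for Dnmt3a, 15.5 kb for Tet1 and 5.11 kb for Dnmt3b. The transcripts in use can be shorter, so orders and shares per length depend on this choice. On that scale Dnmt3b led in all 8 groups, at 951 CPM per kb in E6.5 WT, 356 in E7.5 WT, 803 in E7.5 null and 92.8 in WT EpiSCs, and Uhrf1 came next, at 117, 103, 105 and 67.4 CPM per kb. In E6.5 WT the order then ran Dnmt1 (60.3 CPM per kb), Tet1 (29.7), Dnmt3a (26.7), Dnmt3l (8.53), Tet3 (7.26) and Tet2 (0.496). Tet1 and Dnmt3a overlapped between libraries there, as did Dnmt3a and Dnmt3l, and Dnmt3l and Tet3. The place of Dnmt3l there rested on E6.5 WT 3, at 47.2 CPM per kb, since in the other 8 libraries it was at 2.14 to 6.75 CPM per kb, below Tet3 in each. Dnmt3l moved from rank 3 in E5.5 WT, at 55.7 CPM per kb, to rank 8 in E7.5 WT, at 0.359 CPM per kb, where it overlapped with Tet2.

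**Figure D4:**
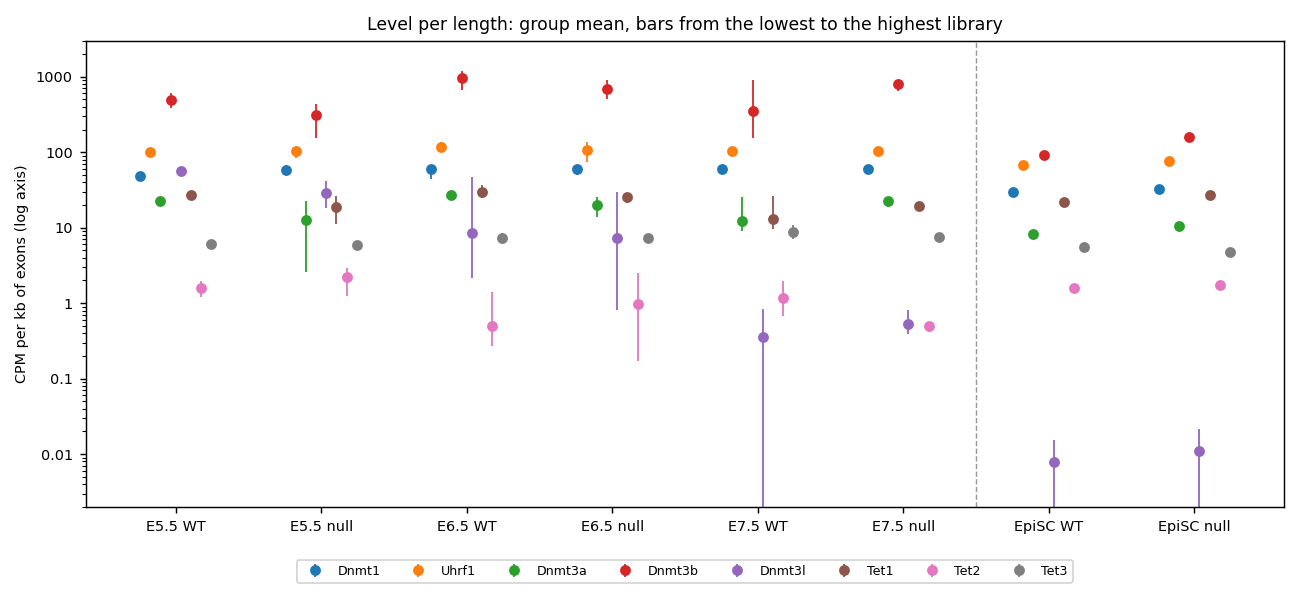
Group mean level per kb of exon (CPM per kb, log axis) for each gene, with bars from the lowest to the highest library. Bars that run to the bottom of the axis have a library at 0, and the dashed line separates the EpiSC table. Dnmt3b is the highest gene in every group, and Dnmt3l moves from 55.7 CPM per kb in E5.5 WT to 0.359 CPM per kb in E7.5 WT.

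Among the TET enzymes, Tet1 made up 79.1% ± 2.13 (SD, n = 9) of the summed level per length in E6.5 WT, 55.7% ± 10.3 (SD, n = 9) in E7.5 WT and 70.4% ± 0.93 (SD, n = 3) in E7.5 null epiblasts. Tet3 made up 19.6%, 39.0% and 27.8% of it in the same groups. Among the de novo genes, Dnmt3b made up 85.8% of the sum in E5.5 WT and 96.2% in E6.5 WT, and Dnmt3l 10.1% ± 2.77 (SD, n = 2) and 1.04% ± 2.03 (SD, n = 9), the latter with E6.5 WT 3 at 6.45% and the other 8 libraries at 0.176% to 0.602%. These shares are descriptions and were not tested.

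How the members varied together from library to library differed between the groups described. Over the 9 E7.5 WT epiblasts the log2 level of Dnmt3b had a Pearson r of 0.903 with Tet1 (Spearman 0.900), 0.870 with Dnmt3a (Spearman 0.767) and -0.889 with Tet2 (Spearman -0.900). With the pluripotency gene Pou5f1 it was 0.984 (Spearman 0.983), and with summed visceral endoderm markers -0.877 (Spearman -0.833). Without the 2 libraries farthest from the median of the second measure, picked for each pair, these values were 0.845, 0.831, -0.933, 0.986 and -0.881. Over the 8 E6.5 null epiblasts Dnmt3b had an r of 0.832 with Dnmt3a, 0.445 with Tet1 and -0.891 with Tet2 (Spearman 0.857, 0.262 and -0.810). With Pou5f1 the r of Dnmt3b was 0.803 in E6.5 null and 0.869 in E6.5 WT (Spearman 0.857 and 0.483). Without the 2 farthest libraries it was 0.391 and 0.207. With summed visceral endoderm markers the r of Dnmt3b was -0.095 in E6.5 null and -0.587 in E6.5 WT (Spearman 0.048 and -0.333). Without the 2 farthest libraries these were 0.340 and 0.737. Over the 9 E6.5 WT epiblasts its r was -0.197 with Tet1, 0.427 with Dnmt3a and -0.405 with Tet2 (Spearman -0.117, 0.40 and -0.40), and without the 2 farthest libraries 0.923, 0.046 and 0.440. These are descriptions over libraries that share a normalisation and differ in depth and cell makeup.

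Across all 35 epiblast libraries, the genes whose log2 levels followed each member most closely were picked by Pearson r among 24125 other genes. For Dnmt3b they were Gm14490 (0.951), Bend3 (0.939) and Slc7a3 (0.926), and for Dnmt3a Chd9 (0.943), Slc7a3 (0.936) and Itga6 (0.933). Tet1 was followed by Akap12 (0.947), Rbpms2 (0.940) and Jmjd1c (0.930), and Tet2 by N4bp2 (0.900), Tm9sf3 (0.898) and Fam65a (0.890). Dnmt3l was followed by Gm9788 (0.875) and Trim25 (0.875). Dnmt1, with Mcm4 of the replicative helicase (0.805), Uhrf1, with Rnf168 (0.770), and Tet3, with Nr6a1 (0.809), had weaker best matches. Without E5.5 null 1, over 34 libraries, the closest gene was Slc7a3 for Dnmt3a (0.921), Tmem130 for Dnmt1 (0.810) and Chaf1b for Uhrf1 (0.780), and was the same gene for the other 5 members.

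With all libraries kept, genes of the wider machinery were called by edgeR only between E5.5 and E6.5. Of 26 partner genes (chromatin factors, readers of methylation, repair and metabolic enzymes that supply or use methyl groups), 24 were tested between E6.5 and E7.5 in WT. Of them 0 were called, where 8.83% of all genes were (1 without E6.5 WT 3 and E7.5 WT 3, where 12.5% were). Their median log2 fold change was 0.03 against 0.0066 over all genes. Between E5.5 and E6.5 in WT, Mbd4, a glycosylase that binds methylated DNA, rose (1.16 on the log2 scale), and Zfp57, which protects imprints (-1.37), Idh1, which makes the TET cofactor 2-oxoglutarate (-1.35), and Mbd2, a reader of methylation (-1.05), fell, 4 of 25 tested where 5.15% of all genes were called. Without E6.5 WT 3 the counts were 2 higher and 4 lower, where 9.9% of all genes were called. In null epiblasts over the same step Ahcy, which clears S-adenosylhomocysteine, rose (1.12), 1 of 25 where 1.98% of all genes were called. No partner was called by edgeR between genotypes at any stage or in EpiSCs. Of 16 replication and cell cycle genes, 0 were called in any comparison, and their summed group means ranged from 4909.5 to 5622 CPM in epiblasts.

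Germline genes known to be silenced by promoter methylation after implantation fell between E6.5 and E7.5 in WT epiblasts. Of the 18, 10 were tested, with a median log2 fold change of -2.76 against 0.0066 over all genes. Of these, 7 were called lower and 0 higher, where 3.09% and 5.74% of all genes were. Tuba3a, a testis tubulin (-5.65), Ddx4, a germ cell RNA helicase (-1.73), and Sycp3, of the meiotic chromosome axis (-1.91), were among them, though Tuba3a has a close copy, Tuba3b, with which it may share reads. In null epiblasts 14 were tested, all 14 lower at E7.5, with a median of -3.33 when genes at 0 are set to their bound. The 1 called, where 0.103% of all genes were, was Tuba3a, at 0 counts in all 3 E7.5 null libraries. It was at least 98.3-fold lower than in E6.5 null. Tuba3a, Dazl and Rpl10l were at 0 in every E7.5 null library, so they passed the filter on low counts only through E6.5. For such genes the direction was set by the filter. The same limit holds in WT for genes near 0 at E7.5, such as Tuba3a (median 0 CPM). The summed level was 65.8 ± 46.3 CPM (SD, n = 9) in E6.5 WT and 11.8 ± 2.18 CPM (SD, n = 9) in E7.5 WT, and 65.02 ± 33.8 CPM (SD, n = 8) and 8.93 ± 2.64 CPM (SD, n = 3) in null. Visceral endoderm markers moved in opposite directions in these comparisons, 16 of 16 higher at E7.5 in WT and 15 of 16 with a fold change below 0 in null, and their part in the germline values was not tested.

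**Figure D5:**
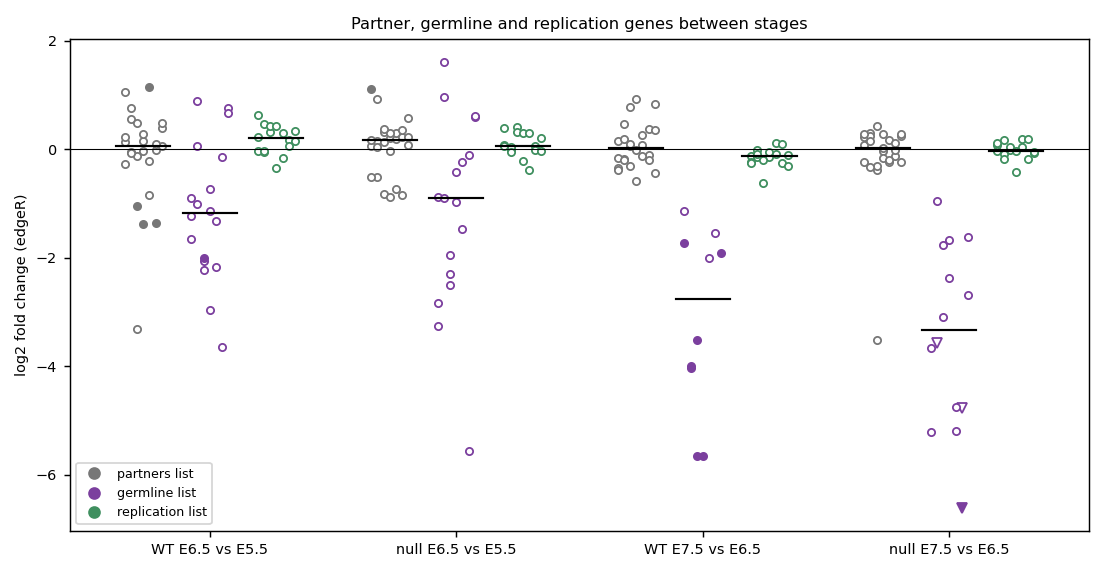
Log2 fold changes (edgeR) of the partner, germline and replication genes between stages, with black bars for medians and filled points for calls. Triangles are genes at 0 in every E7.5 null library, drawn at the fold that a count of 0 allows. The germline medians lie at -2.76 in WT and -3.33 in null epiblasts from E6.5 to E7.5, while the replication genes stay near 0.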

How the data were processed

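RNA was sequenced from 35 mouse epiblasts and 4 EpiSC lines. Per the processing notes, the authors trimmed reads with Trim Galore, aligned them to GRCm38/mm10 with HISAT2 and counted genes with StringTie. The deposited values are whole-number counts per gene, in a table for epiblasts and a table for EpiSCs. The annotation version and strand setting are not given in the sources used here, so reads shared with overlapping antisense genes (Dnmt3aos with Dnmt3a, Aire with Dnmt3l, Gm42567 with Tet2) or a near-identical copy (Gm5648 with Uhrf1) could not be separated.

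Samples were grouped by the labels' genotype and stage. For each comparison, genes were filtered with filterByExpr (minimum count 10, minimum total 15), scaled by TMM and tested with edgeR's quasi-likelihood test (edgeR 4.0.16, R 4.3.3) in a fit of the groups compared. P-values were adjusted by Benjamini-Hochberg over all genes tested. A gene was called at an adjusted p under 0.05 and an absolute log2 fold change over 1, and the SE of a log2 fold change was taken from its F statistic, as its size over the root of F. CPM used TMM library sizes, and a count of 0 was read against a floor of 3 counts. Levels per length used exon lengths of GENCODE vM21, merged over all transcripts of a gene. Promoter windows and their sequences came from RefSeq on GRCm38.p6. Epiblast libraries held 22941210 to 79013960 counts and EpiSC libraries 63445877 to 127583699, and intervals of counting error alone do not cover the spread between embryos. Each epiblast library is a separate embryo and each EpiSC library a separate line.

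Named genes were the 8 members, up to 4 called genes of each list with the smallest p, and the 3 genes closest in pattern to each member. The members and lists were chosen with earlier results of these data known. Alternatives were DESeq2 1.42.0, its size factors, no filter, a fit of all 35 libraries, a depth term, limma 3.58.1 with sample weights, genes over 1% of counts left out, the replicate number as a block, each library left out in turn, and E5.5 null 1, E6.5 null 1, E6.5 WT 3 and E7.5 WT 3 left out together. The edgeR fit was tested on simulated data with 4-fold and 8-fold changes. It recovered 85% and 91.9% of them for WT E7.5 against E6.5, and 84% and 93% for E7.5 null against WT. For null E6.5 against E5.5 it recovered 49.5% and 63.3%. Smaller changes were not simulated.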

Additional observations from a re-analysis of the deposited data

Results flagged for a closer look

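Of 32 groups of 4 to 10 libraries examined for a single library far from the rest (the 8 genes in 4 groups), 5 had one beyond Dixon's 95% critical value, where chance gives about 1 in 20. E6.5 WT 3 stood apart for Dnmt1, at 322 CPM against a group median of 462 CPM, and for Dnmt3l, at 141 CPM against a median of 10.7 CPM. E7.5 WT 3 stood apart for Dnmt3a, at 423 CPM against a median of 195 CPM, and for Tet1, at 408 CPM against a median of 176 CPM. E6.5 WT 1 stood apart for Tet2, at 23.9 CPM against a median of 5.42 CPM.

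The change of Dnmt3a from E6.5 to E7.5 differed between genotypes, with a null change minus WT change of 1.29 ± 0.26 on the log2 scale (edgeR interaction term, adjusted p = 0.0204). It was lower at E7.5 in WT (-1.10 ± 0.16) and 0.19 ± 0.17 in null epiblasts. The call was lost without E7.5 null 1 (edgeR adjusted p = 0.134), without E7.5 null 2 (0.163), in a fit of all 35 libraries (0.120) and with the replicate block (0.0733). Visceral endoderm and epiblast markers also shifted in this term, and their part in the result was not tested.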

How the results depend on the processing

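Of the 8 genes, 5 were called between WT E6.5 and E7.5 by edgeR and 4 to 5 under the alternatives, and the counts between genotypes at E5.5, at E6.5 and in EpiSCs were 0 under every alternative run. Elsewhere the count moved. DESeq2 called 1 gene at E7.5 between genotypes, 2 for null E6.5 against E5.5, 1 for null E7.5 against E6.5 and 3 for the interaction. Sample weights called 3, 3, 3, 2, 1 and 3 genes, in the order E7.5 between genotypes, WT E6.5 against E5.5, null E6.5 against E5.5, E6.5 null against E5.5 WT, E7.5 null against E6.5 WT and the interaction. A fit of all 35 libraries called 0 for WT E6.5 against E5.5 and 0 for the interaction, and no filter called 0 for null E6.5 against E5.5. Without the 4 libraries that stand apart the counts were 3 at E7.5 between genotypes, 2 for WT E6.5 against E5.5, 1 for E6.5 null against E5.5 WT, 1 for E7.5 null against E6.5 WT and 2 for the interaction. With each library left out in turn they ranged from 0 to 3 at E7.5 between genotypes, from 0 to 2 for WT and for null E6.5 against E5.5 and for the interaction, and from 0 to 1 for E6.5 null against E5.5 WT and for E7.5 null against E6.5 WT. The cause was not tested.

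Replicate numbers did not pair the samples (correlations of same-numbered deviations from -0.173 to 0.284, not all over 0.1 in any comparison). With the replicate block the count was 2 for WT E6.5 against E5.5, 0 for null E6.5 against E5.5 and 0 for the interaction.

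Of 76 fold changes that turned direction, 68 were within their SE of 0 in both fits, and none was called in either fit. With the replicate block the log2 values that turned were Tet3 0.020 in null against WT at E5.5, Dnmt1 0.011 in null against WT at E6.5, Dnmt1 0.0016 in WT E7.5 against E6.5, Tet2 -0.53 in E7.5 null against E6.5 WT and Dnmt3l -0.31 in the interaction. Without the libraries that stand apart the log2 values that turned were Uhrf1 -0.011 in null against WT at E5.5, Dnmt3l 0.19, Tet3 -0.022 in null against WT at E6.5, Dnmt1 0.10, Uhrf1 0.082 in null E6.5 against E5.5, Uhrf1 0.0082 in null E7.5 against E6.5 and Dnmt1 -0.038 in E7.5 null against E6.5 WT. With sample weights the log2 values that turned were Dnmt3l 0.11 in null against WT at E6.5, Dnmt1 0.094, Uhrf1 0.0089 in null E6.5 against E5.5, Dnmt1 -0.013, Uhrf1 0.010, Tet2 0.11 in null E7.5 against E6.5 and Dnmt1 -0.051 in E7.5 null against E6.5 WT. In libraries under 40000000 counts the log2 values that turned were Dnmt3l 0.016, Tet3 -0.013 in null against WT at E6.5. In libraries over 40000000 counts the log2 value that turned was Dnmt1 0.030 in null against WT at E6.5. In a fit of all 35 libraries the log2 values that turned were Dnmt1 0.012 in WT E7.5 against E6.5, Dnmt1 0.0050 in null E6.5 against E5.5 and Uhrf1 0.0035 in null E7.5 against E6.5. With no filter the log2 values that turned were Dnmt1 0.016, Uhrf1 0.010 in null E6.5 against E5.5. With each library left out in turn, the ranges that crossed 0 were Uhrf1 -0.086 to 0.25, Tet3 -0.11 to 0.051 in null against WT at E5.5, Tet3 -0.0086 to 0.045, Dnmt1 -0.058 to 0.022, Dnmt3l -1.02 to 1.0 in null against WT at E6.5, Tet1 -0.019 to 0.25 in WT E6.5 against E5.5, Dnmt1 -0.055 to 0.010 in WT E7.5 against E6.5. Others were Dnmt1 -0.039 to 0.11, Uhrf1 -0.097 to 0.097 in null E6.5 against E5.5, Uhrf1 -0.073 to 0.059, Dnmt1 -0.0069 to 0.057 in null E7.5 against E6.5, Uhrf1 -0.10 to 0.25, Tet1 -0.21 to 0.056 in E6.5 null against E5.5 WT, Dnmt1 -0.038 to 0.030, Tet2 -0.064 to 0.39 in E7.5 null against E6.5 WT, Dnmt3l -0.43 to 0.96 in the interaction. DESeq2 gave no adjusted p for Dnmt3l in 5 comparisons, so its counts there leave Dnmt3l out. They were E6.5 null against WT, WT E6.5 against E5.5, WT E7.5 against E6.5, E6.5 null against E5.5 WT and E7.5 null against E6.5 WT. Low counts limit Dnmt3l at E7.5 and in EpiSCs.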

Other observations

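Dnmt3l and the germline genes were low at E7.5 in both genotypes. Dnmt3l was at 1.07 ± 0.91 CPM (SD, n = 9) in E7.5 WT and 1.59 ± 0.70 CPM (SD, n = 3) in E7.5 null epiblasts. Of the germline genes, 7 were tested between genotypes at E7.5, with a median log2 fold change of 0.06, and 0 were called, where 1.17% of all genes were. Between E5.5 and E6.5, 1 of 18 germline genes, Tuba3a, was called lower in WT (-2.0 on the log2 scale, edgeR adjusted p = 0.00742), where 2.63% of all genes were. For null epiblasts it was 0 of 17, where 1.98% of all genes were called in either direction. The medians were -1.18 and -0.89. Without E6.5 WT 3 the WT count was 3 of 17, where 9.9% of all genes were called in either direction. In EpiSCs all 7 germline genes tested had a fold change below 0 in null lines, with a median of -0.74, and 0 were called, where 0.106% of all genes were. Some had few counts, such as Ddx4, at 29 to 33 in WT and 3 to 12 in null, and Stk31, at 29 to 32 and 5 to 7. Genes this low in null can pass the filter through the WT lines alone, which sets their direction. There were 2 lines a group.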
